A study of Homo sapiens with 8 samples.

Results

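A group of 8 annotated human microRNA (miRNA) names whose reads may include pieces of other non-coding RNAs were followed in HCT116 cells, a human colorectal carcinoma line, rescued with wild-type or mutant DICER. The names are hsa-miR-3182, hsa-miR-4497, hsa-miR-4532, hsa-miR-1268a, hsa-miR-1268b, hsa-miR-6724-5p, hsa-miR-7704 and hsa-miR-4286 (written without the prefix below), out of 1818 mature miRNA names listed in at least 1 library. They were picked by name, with the results of these libraries already known, including how the names varied with mutant and with library size. The levels below therefore describe the names, and the adjusted p-values are the output of a fit to all names and no independent support. All 8 were listed in every library and passed the filter on low counts that left 625 names for testing.

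The rescued cells carried DICER with the substitution R1855L, R821H or R1003Q, or wild-type DICER (WT), and each of the 4 groups has 2 libraries. All groups share the cell line and the rescue design, and the labels name neither the parental genotype of the cells nor the rescue construct. Small RNA was sequenced by AQ-seq, a library method with reduced ligation bias, from total RNA. No label states that the 2 libraries of a group are separate cultures, so the p-values reflect the variation among these libraries alone and that variation may be technical. In bulk libraries of this kind, fewer cells holding an RNA and less of it per cell cannot be told apart.

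DICER, an RNase III enzyme, trims hairpin precursors to short duplexes, and a strand of each duplex becomes the mature miRNA. Small RNA libraries also take up pieces of abundant RNAs, such as ribosomal RNA (rRNA), transfer RNA and signal recognition particle RNA, and a piece that matches an annotated miRNA is counted under that name. Several late-numbered miRNA names were registered from deep sequencing and have been questioned for this reason. Such pieces need not pass through DICER. The deposited tables hold a count per name and no read sequences, so whether the reads of the 8 names were hairpin products or fragments was not tested.

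The mature sequences are shown because their length and base composition set most of the names apart from typical miRNAs. Sequences from RefSeq (GRCh38.p14) were used for 6 of the 8 names, and the capitals mark the seed, bases 2 to 8, which directs target pairing. miR-4532 and miR-4286 are named only.
miR-3182: gCUUCUGUaguguaguc
miR-4497: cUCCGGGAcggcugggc
miR-1268a: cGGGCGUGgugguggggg
miR-1268b: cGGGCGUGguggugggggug
miR-6724-5p: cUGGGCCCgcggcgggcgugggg
miR-7704: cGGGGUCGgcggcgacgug

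The miR-1268a sequence of 18 nt is contained whole in miR-1268b, which has 20 nt, and both share the seed GGGCGUG. No other pair among the 6 shared a seed. miR-3182 and miR-4497 are 17 nt long, miR-7704 is 19 nt and miR-6724-5p is 23 nt. Among the 6, 5 were no longer than 20 nt, against 43 of 542 tested names with a sequence (7.93%). The share of G and C was 47.1% in miR-3182 and between 80% and 91.3% in the others. Of the 542 names, 69 (12.7%) reached 70% G and C, as did 5 of these 6. With a sequence for only 75% of the 8 names, these comparisons describe the 6 and are void as a check of the whole group.

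The names come from scattered loci. In GRCh38.p14 the mature sequences lie at chr16:83508349-83508365 (plus strand) for miR-3182, chr12:109833350-109833366 (plus) for miR-4497, chr15:22225308-22225325 (minus) for miR-1268a, chr17:80098831-80098850 (plus) for miR-1268b and chr2:176188843-176188861 (plus) for miR-7704. In the GENCODE release 29 annotation of GRCh38, MIR3182 is in an intron of CDH13, which encodes an adhesion molecule of the cadherin family. MIR1268B is in an intron of CCDC40, a gene needed to build motile cilia. MIR4497 lies opposite a UTR exon of TRPV4, a cation channel gene, and MIR4286 opposite an intron of RP1L1, a photoreceptor gene. MIR7704 falls within coding sequence of HOXD1, a homeobox transcription factor gene, and within an exon of its antisense RNA HAGLR. MIR1268A and MIR4532 lie between annotated genes.

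miR-6724-5p is placed beside rRNA genes. Its 4 annotated hairpins are on chromosome 21, and 3 of them end 582, 582 and 601 bases before the annotated starts of RNA45SN2, RNA45SN3 and RNA45SN1, which encode the precursor of 18S, 5.8S and 28S rRNA. One copy of the mature sequence is at chr21:8249515-8249537 (plus strand). It lies in MIR6724-2, the hairpin for which no such start was found close by. MIR6724-1 and MIR6724-3 are in introns of the long non-coding RNA genes FP671120.1 and FP236383.1. In a search of 5717 annotated transcripts of other non-coding RNAs, none of the 6 sequences matched exactly. miR-1268a had 1 mismatch to a transcript of the signal recognition particle RNA family, and the other 5 had between 3 and 6 mismatches at their closest. Names with at most 2 mismatches numbered 13 of 542 (2.40%) among all tested names, 11 of them exact. Transfer RNA and the large rRNAs were outside the transcripts searched, so the resemblance named for the group could be checked only in part.

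Library totals ranged from 462805 to 4269231 reads, a 9.22-fold span. They were 2241881 and 462805 reads in R1855L, 3340304 and 841857 in R821H, 1143373 and 675934 in R1003Q, and 1137858 and 4269231 in WT (replicates 1 and 2, the order used throughout). The widest gap between totals separates 3 deep libraries, R1855L replicate 1, R821H replicate 1 and WT replicate 2, from 5 shallow ones. R1855L has the lowest total within each class, and both R1003Q libraries are shallow. A count of 0 allows 3 reads, or 6.48 CPM (counts rescaled so that every library has the same total) in the shallowest and 0.703 CPM in the deepest library, by counting error only. Of 8 epithelial and colorectal marker miRNAs, 7 were found in every library, and the summed level was 3112 to 3594 CPM in R1855L, 3050 to 3288 in R821H, 2947 to 3172 in R1003Q and 3508 to 3685 in WT. The exception was miR-215-5p, at 0 to 5 reads. Of the 7, miR-200a-3p ranged from 968 to 1258 CPM and miR-200b-3p from 974 to 1562. By contrast, miR-200c-3p ranged from 21.1 to 43.7 CPM and miR-141-3p from 13.0 to 42.9. Of 15 miRNAs of blood, liver, muscle, neurons and mesenchyme, 12 were found in every library, with sums of 2572 to 2673 CPM in R1855L, 2002 to 2216 in R821H, 2104 to 2138 in R1003Q and 2108 to 2363 in WT. In this list miR-155-5p, miR-1-3p and miR-124-3p had at most 3 reads in any library, while miR-9-5p ranged from 532 to 1076 CPM, miR-145-5p from 561 to 890, miR-142-3p from 257 to 449 and miR-451a from 115 to 302. The part of other cells in the results was not tested.

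From the shallow to the deep libraries, the reads of the 8 names did not grow in proportion to library size. The counts of miR-1268a, miR-1268b and miR-6724-5p varied 2.06-fold to 2.07-fold over the 8 libraries, and their share of the library was higher in the shallow libraries. miR-3182, miR-4497, miR-4532 and miR-7704 had fewer reads in the deep than in the shallow library of the same group, and so did miR-4286. The values of each name follow, from the most to the least abundant.

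miR-1268b had 6417 and 4655 reads in R1855L, 6388 and 4603 in R821H, 7518 and 4877 in R1003Q, and 9534 and 8127 in WT. miR-1268a followed it closely, with 5902 and 4333 reads in R1855L, 5888 and 4195 in R821H, 6885 and 4468 in R1003Q, and 8646 and 7324 in WT. The reads of miR-1268b over those of miR-1268a gave a ratio of 1.07 to 1.11 in all 8 libraries, with 322 to 888 more reads for miR-1268b. A read of the 18 shared bases matches both names, and whether such reads were counted under both is not given in the sources used here, so the levels of the pair may not be independent. All counts of the 8 names were whole numbers, while 19 to 33 other names per library carried fractions of a read. Together miR-1268a and miR-1268b made up 73.9% to 88.2% of the summed reads of the group.

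miR-6724-5p had 1579 and 1538 reads in R1855L, 1825 and 1095 in R821H, 2115 and 1023 in R1003Q, and 1682 and 1527 in WT. Its counts spanned 2.07-fold while its CPM spanned 9.29-fold. miR-4286 had 461 and 563 reads in R1855L, 631 and 1685 in R821H, 418 and 405 in R1003Q, and 563 and 468 in WT. One library stands apart for this name: R821H replicate 2, with the other 7 libraries between 405 and 631 reads.

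miR-3182 had 52 and 132 reads in R1855L, 32 and 166 in R821H, 129 and 71 in R1003Q, and 161 and 32 in WT. miR-4497 had 40 and 85 reads in R1855L, 44 and 99 in R821H, 95 and 78 in R1003Q, and 74 and 21 in WT. For both names the 3 lowest counts are those of the 3 deep libraries. miR-4532 had 8 and 48 reads in R1855L, 10 and 35 in R821H, 37 and 17 in R1003Q, and 42 and 9 in WT. The least abundant name, miR-7704, had 17 and 31 reads in R1855L, 22 and 34 in R821H, 29 and 17 in R1003Q, and 16 and 10 in WT. These 2 names had the fewest reads, 206 for miR-4532 and 176 for miR-7704 over all libraries, so their relative counting error is the largest of the 8.

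**Figure D1:**
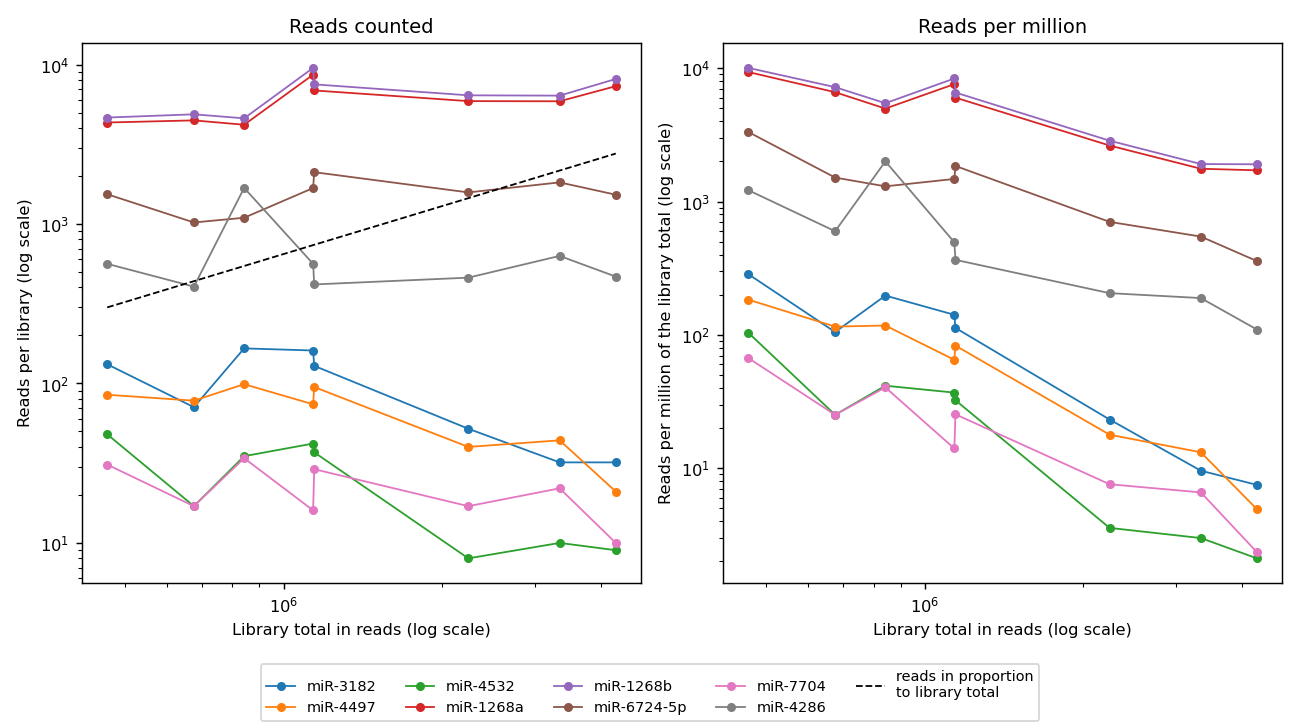
Reads (left) and CPM on the library total (right) of the 8 names in each of 8 libraries, against library total in reads, all axes on log scales; points are libraries and the dashed line shows a count in proportion to the total. Toward the deep libraries the counts rise less steeply than the dashed line or drop, and CPM falls; miR-4286 has its peak of 1685 reads in R821H replicate 2.

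The summed reads of the 8 names were 0.646% of the library (exact Clopper-Pearson 95% interval 0.635 to 0.656) and 2.46% (2.42 to 2.51) in R1855L. In R821H they were 0.444% (0.437 to 0.452) and 1.41% (1.39 to 1.44). Both R1003Q libraries lay close together, at 1.51% (1.48 to 1.53) and 1.62% (1.59 to 1.65). WT libraries held 1.82% (1.80 to 1.85) and 0.410% (0.404 to 0.416). The 5 shallow libraries lie between 1.41% and 2.46% and the 3 deep ones between 0.410% and 0.646%, so the classes do not overlap. R1855L and WT each span most of the range, and R821H spans less of it. The intervals cover counting error only and take all counted reads as separate. The miR-1268 pair makes up most of the sum, and any read counted under both of its names would enter more than once.

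Ratios of the shallow to the deep library of a group were formed from CPM on the library totals, with 0.5 reads added. miR-4532 was 27.6-fold higher in the shallow library in R1855L, 13.4-fold in R821H and 16.8-fold in WT, the highest mean ratio of all 625 tested names. miR-3182, 3rd of 625, was 12.2-fold higher in R1855L, 20.3-fold in R821H and 18.6-fold in WT. miR-4497, 5th, was 10.2-fold higher in R1855L, 8.87-fold in R821H and 13.0-fold in WT. These 3 names exceed in every group the ratio of the library totals themselves, and so do miR-7704 and miR-4286. The totals were 4.84-fold apart in R1855L, 3.97-fold in R821H and 3.75-fold in WT.

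The names other than miR-4532, miR-3182 and miR-4497 had smaller mean ratios. miR-7704 and miR-4286 had geometric means over the 3 groups of 6.79-fold and 6.56-fold, and ranked 7th and 8th. miR-6724-5p, miR-1268a and miR-1268b had 3.59-fold, 3.54-fold and 3.54-fold and ranked 20th to 22nd. Across the 8 names the median was 2.74 on the log2 scale, with a range of 1.82 to 4.20, beside a median of 0.36 over all tested names. Scaling the totals by trimmed mean of M-values (TMM), which corrects for library composition, shifts the mean log2 ratio of every name by -0.31 and leaves the ranks as they are. The median is then 2.43 for the 8 names and 0.06 for all tested names, and small positive means, such as that of miR-31-5p, turn negative. Among the 617 other tested names, 14 were at or above 1.82. The 3 most abundant miRNAs in WT, miR-21-5p, miR-222-3p and miR-31-5p, had mean log2 ratios of -0.45, 0.50 and 0.16. The R1003Q libraries, both shallow, differed less for all 8 names, by 0.789-fold to 1.64-fold for replicate 2 over replicate 1 on the library totals.

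In all, 5 of the 8 names had fewer reads in the deep library in all 3 groups, against 9 of 625 tested names (1.44%). The 4 others were miR-4417, miR-4466, miR-4472 and miR-5100, named after their values were seen, each with at most 32 reads in any of these libraries. Library composition and depth move together here, and the labels give no run, lane or preparation batch. Depth and any batch that goes with it cannot be told apart, and their part in these ratios was not tested.

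Base composition moved with the same ratio among names outside the group. The median log2 ratio of shallow over deep was -0.24 in 108 names under 40% G and C, 0.20 in 232 names from 40% to 55%, 0.70 in 132 names from 55% to 70%, and 1.09 in 64 names at 70% or more. By length it was 0.90 in 29 names of 19 to 20 nt, 0.49 in 88 names of 21 nt, 0.26 in 291 names of 22 nt and 0.31 in 87 names of 23 nt. Only 9 names had 18 nt or fewer, with a median of 0.98. Of the 64 names rich in G and C, 4 were at or above 1.82, the lowest value in the group. The same held for 5 of 38 names of 20 nt or less and for 3 of 15 names that were both short and rich in G and C. miR-3182, with 47.1% G and C, had 4.06, while the 232 names of 40% to 55% had a median of 0.20. The part of length and base composition in the levels of the 8 names was not tested.

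**Figure D2:**
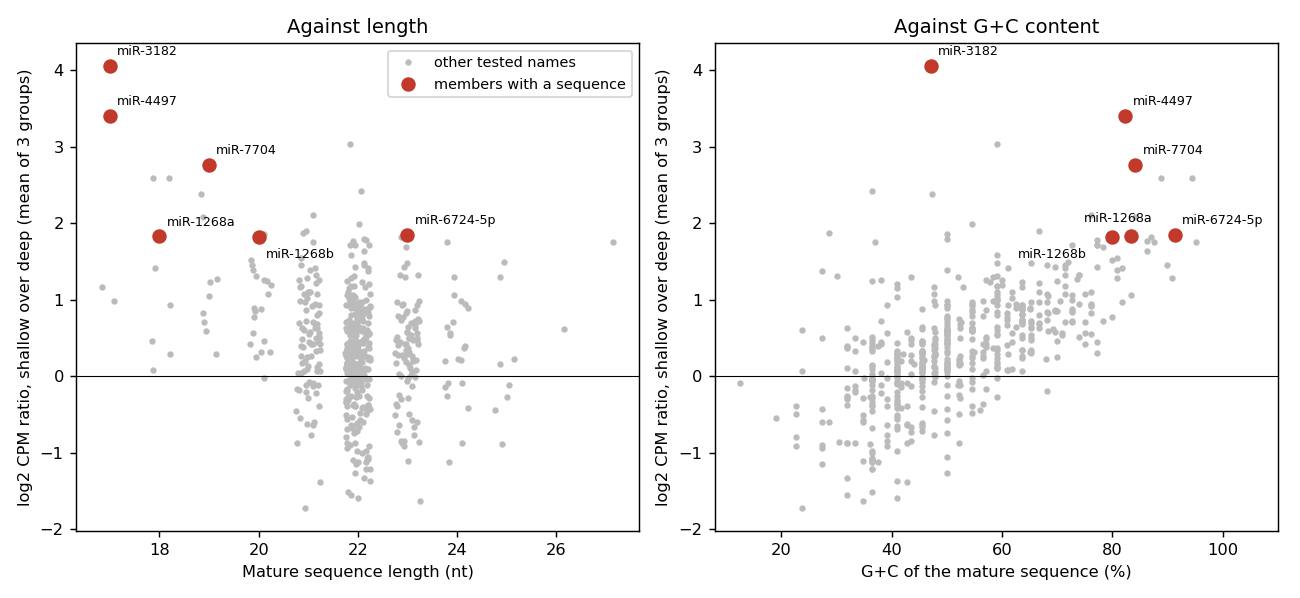
Mean log2 ratio of CPM on library totals, shallow over deep library, over R1855L, R821H and WT, against mature length in nt (left) and percent G and C (right) for 542 tested names with a RefSeq sequence; red points are the 6 of the 8 names with a sequence, and grey points are shifted slightly sideways on the left. The grey points climb with G and C content. All 6 red points stand above most of them, with miR-3182, miR-4497 and miR-7704 the highest of the 6.

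Against WT, no name passed the test in any mutant when group alone was in the model. This comparison asks whether a DICER substitution changed the level of a name relative to WT DICER. In R1855L, 0 of 8 names were called by edgeR's quasi-likelihood test at a Benjamini-Hochberg adjusted p under 0.05, where 5.76% of the 625 tested names were called in either direction. In R821H and in R1003Q 0 of 8 were called, with a background of 0% in each. At an unadjusted p under 0.05 there was also none of the 8 in any mutant, beside 18.4% of all tested names in R1855L, 3.2% in R821H and 4.96% in R1003Q. DESeq2 called 0 of 8 in each mutant, where its backgrounds were 8.32% (R1855L), 0.16% (R821H) and 0% (R1003Q). By DESeq2, 1, 1 and 0 of the 8 had an unadjusted p under 0.05, beside 18.9%, 2.88% and 4.16% of all tested names.

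The median fitted log2 fold change of the 8 names was 1.15 in R1855L, 0.51 in R821H and 0.84 in R1003Q, beside medians of 0.13, 0.04 and 0.06 over all tested names. The 3 comparisons share the WT libraries. Leaving out 1 library moved these medians across 0. Without R1855L replicate 2 the R1855L median was -0.60, and without WT replicate 1 it was 2.89, while without WT replicate 2 it was 0.33 and without R1855L replicate 1 it was 1.94. For R821H it was -1.01 without R821H replicate 2, -0.44 without WT replicate 2, 1.54 without R821H replicate 1 and 3.03 without WT replicate 1. For R1003Q it was -0.039 without WT replicate 2 and 2.66 without WT replicate 1.

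The summed level of the 8 names was 14014 ± 9766 CPM in R1855L, 9611 ± 6444 in R821H, 15468 ± 124 in R1003Q and 10132 ± 7894 in WT (TMM-normalised, SD, n = 2 each). The differences between group means are smaller than the SD within R1855L, R821H and WT. Only in R1003Q, with 2 shallow libraries, is the SD small. Any read counted under both miR-1268 names would enter these sums more than once. The log2 ratio of the summed level to WT was 0.47 (R1855L), -0.08 (R821H) and 0.61 (R1003Q). Leaving out 1 library turned its sign: the R1855L ratio was -0.51 without R1855L replicate 2 and -0.17 without WT replicate 2, the R821H ratio was 0.48 without R821H replicate 1 and 1.08 without WT replicate 1, and the R1003Q ratio was -0.023 without WT replicate 2.

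miR-7704 had the largest fitted change in R1855L and R1003Q. Its levels were 8.35 and 57.0 CPM in R1855L, 7.49 and 40.4 in R821H, 25.9 and 24.1 in R1003Q, and 12.1 and 2.60 in WT. Both R1003Q libraries were above both WT libraries, while R1855L and R821H overlapped WT. The log2 fold change was 2.16 (SE 1.20, edgeR adjusted p = 0.380) in R1855L, 1.75 (SE 1.19, adjusted p = 0.994) in R821H and 1.95 (SE 1.19, adjusted p = 0.857) in R1003Q.

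For miR-4497, levels were 19.6 and 156 CPM in R1855L, 14.99 and 118 in R821H, 84.8 and 111 in R1003Q, and 56.1 and 5.45 in WT. Again only the R1003Q libraries stood clear of WT. The log2 fold change was 1.52 (SE 1.37) in R1855L, 1.13 (SE 1.35) in R821H and 1.74 (SE 1.36) in R1003Q, with edgeR adjusted p-values of 0.616, 0.994 and 0.880.

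The third name whose R1003Q libraries both exceeded both WT libraries was miR-6724-5p. It had 775 and 2826 CPM in R1855L, 622 and 1302 in R821H, 1888 and 1452 in R1003Q, and 1276 and 397 in WT. Its log2 fold change was 1.11 (SE 0.73, edgeR adjusted p = 0.475) in R1855L, 0.20 (SE 0.73, adjusted p = 0.994) in R821H and 1.00 (SE 0.73, adjusted p = 0.880) in R1003Q. Across the group, 3 of 8 names did not overlap WT in R1003Q, where 22.9% of all tested names were above WT in both libraries. In R1855L and R821H none of the 8 did, with backgrounds of 21.1% and 15.4%. WT has 1 deep library and R1003Q has none, and the part of depth in this count was not tested.

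miR-4286 had 226 and 1034 CPM in R1855L, 215 and 2004 in R821H, 373 and 575 in R1003Q, and 427 and 122 in WT. R821H replicate 2 is the highest by a wide margin, and its other replicate is between the 2 WT libraries. The log2 fold change in R821H was 2.02 (SE 1.11, edgeR adjusted p = 0.994). Without R821H replicate 2 it was -0.34, so its direction rests on that library.

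miR-3182 had 25.5 and 243 CPM in R1855L, 10.9 and 197 in R821H, 115 and 101 in R1003Q, and 122 and 8.31 in WT. miR-4532 had 3.93 and 88.2 CPM in R1855L, 3.41 and 41.6 in R821H, 33.0 and 24.1 in R1003Q, and 31.9 and 2.34 in WT. Both names overlap WT in every mutant. Their log2 fold changes lay between 0.36 and 1.41, with SE from 1.55 to 1.67.

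The miR-1268 pair had the smallest fitted changes in R1855L. miR-1268a had 2898 and 7962 CPM in R1855L, 2005 and 4990 in R821H, 6147 and 6344 in R1003Q, and 6558 and 1902 in WT. miR-1268b had 3151 and 8553 CPM in R1855L, 2176 and 5475 in R821H, 6712 and 6924 in R1003Q, and 7231 and 2111 in WT. The log2 fold change of miR-1268a was 0.36 (R1855L), -0.27 (R821H) and 0.56 (R1003Q), that of miR-1268b was 0.32, -0.29 and 0.55 in the same mutants, and all had an SE from 0.70 to 0.71. All overlap WT.

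**Figure D3:**
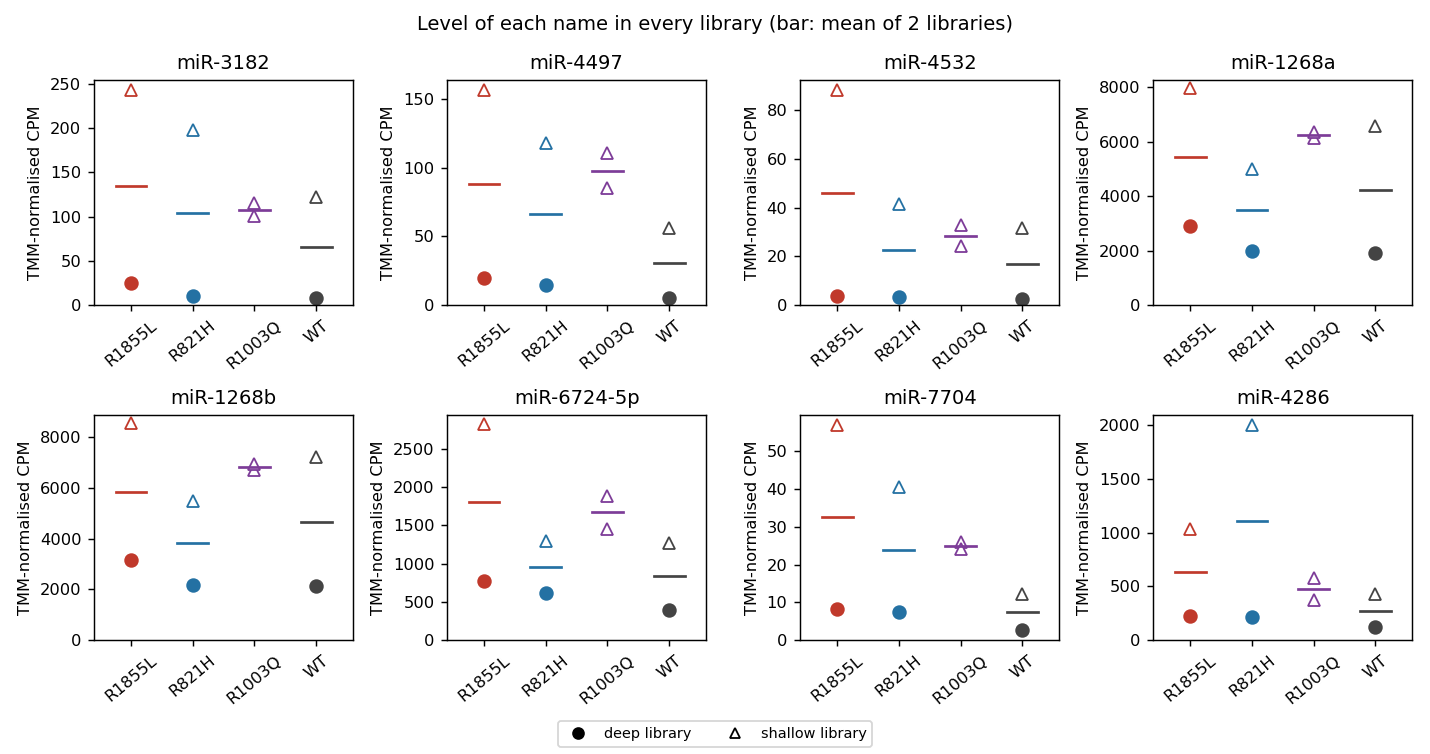
TMM-normalised CPM of each of the 8 names (linear scale from 0) in R1855L, R821H, R1003Q and WT libraries; filled circles are deep libraries, open triangles shallow ones, and the bar is the mean of 2 libraries. In R1855L, R821H and WT the triangle lies above the circle for every name, and the 2 triangles of R1003Q differ by at most 1.54-fold.

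When the libraries were compared within a depth class, the names were higher in R1855L than in WT on TMM-normalised CPM. The R1855L deep library over the WT deep library gave log2 ratios of 0.58 to 1.85 (median 0.93), and the R1855L shallow library over the WT shallow library gave 0.24 to 2.23 (median 1.21), with 8 of 8 names above 0 in each. For R821H the medians were 0.60 in the deep pair, with 8 of 8 above 0, and 0.54 in the shallow pair, with 6 of 8 above 0. The R1003Q libraries over the shallow WT library gave medians of -0.02 for replicate 1 and 0.07 for replicate 2, with 4 of 8 names above 0 in each. Each of these sets 1 library against 1 library, with no replicate check. The pairs are not matched in depth. R1855L had 2241881 reads against 4269231 in WT in the deep pair, and 462805 against 1137858 in the shallow pair. Values over all tested names are not given for these pairs, and the part of depth in the ratios was not tested.

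A term for depth class in the edgeR model placed 5 of 8 names higher in R1855L, where 11.7% of all tested names were called higher. They were miR-7704 (log2 fold change 1.99, SE 0.39, adjusted p = 0.00026), miR-4497 (1.61, SE 0.29, adjusted p = 8.42e-05), miR-4532 (1.28, SE 0.36, adjusted p = 0.00798), miR-3182 (1.24, SE 0.27, adjusted p = 0.000685) and miR-6724-5p (1.06, SE 0.20, adjusted p = 0.000148). The other 3 did not pass, with log2 fold changes of 1.07 for miR-4286, 0.44 for miR-1268a and 0.40 for miR-1268b and edgeR adjusted p-values of 0.0522, 0.0536 and 0.0720. With any 1 library left out, between 4 and 8 names were called. There were 4 without WT replicate 1, where 4.16% of all tested names were called higher, and 4 without R1855L replicate 2, where 10.9% were. There were 8 without R821H replicate 1 or 2, where 16.6% and 16.2% were.

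In R821H the same term placed 2 of 8 names higher, where 0.8% of all tested names were called higher. These were miR-4497 (log2 fold change 1.21, SE 0.28) and miR-7704 (1.64, SE 0.38), each with an edgeR adjusted p of 0.0135. Without WT replicate 1 no name was called, and without WT replicate 2 there was 1, with 0% and 0.32% of all tested names called higher. miR-4286 had 1.56 (SE 0.35, edgeR adjusted p = 0.0581). In R1003Q 0 of 8 were called, with a background of 0% for higher names, and 3 of the 8 had an unadjusted p under 0.05, beside 13.1% of all tested names. The log2 fold changes in R1003Q were 0.93 for miR-7704, 0.88 for miR-4497 and 0.46 for miR-6724-5p, and between -0.18 and 0.06 for the other 5.

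These calls depended on how depth entered the model. With log2 library total as a covariate, 0 of 8 names were called higher or lower by edgeR in R1855L, R821H or R1003Q, where 11.4%, 0% and 0% of all tested names were called higher. At an unadjusted p under 0.05 there were 0, 4 and 0 of the 8, beside 36.2%, 13.8% and 10.2% of all tested names. The 4 in R821H were miR-4286 (1.14) and miR-7704 (1.17), above WT, and miR-1268a (-0.45) and miR-1268b (-0.47), below it. The median log2 fold change of the 8 names was then -0.27 in R1855L, -0.02 in R821H and -0.11 in R1003Q. miR-7704 had 0.68 (SE 0.47), 1.17 (SE 0.42) and 0.68 (SE 0.46) in R1855L, R821H and R1003Q. As R1855L has the lowest total in each depth class, an effect of R1855L and an effect of depth cannot be told apart for these names.

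**Figure D4:**
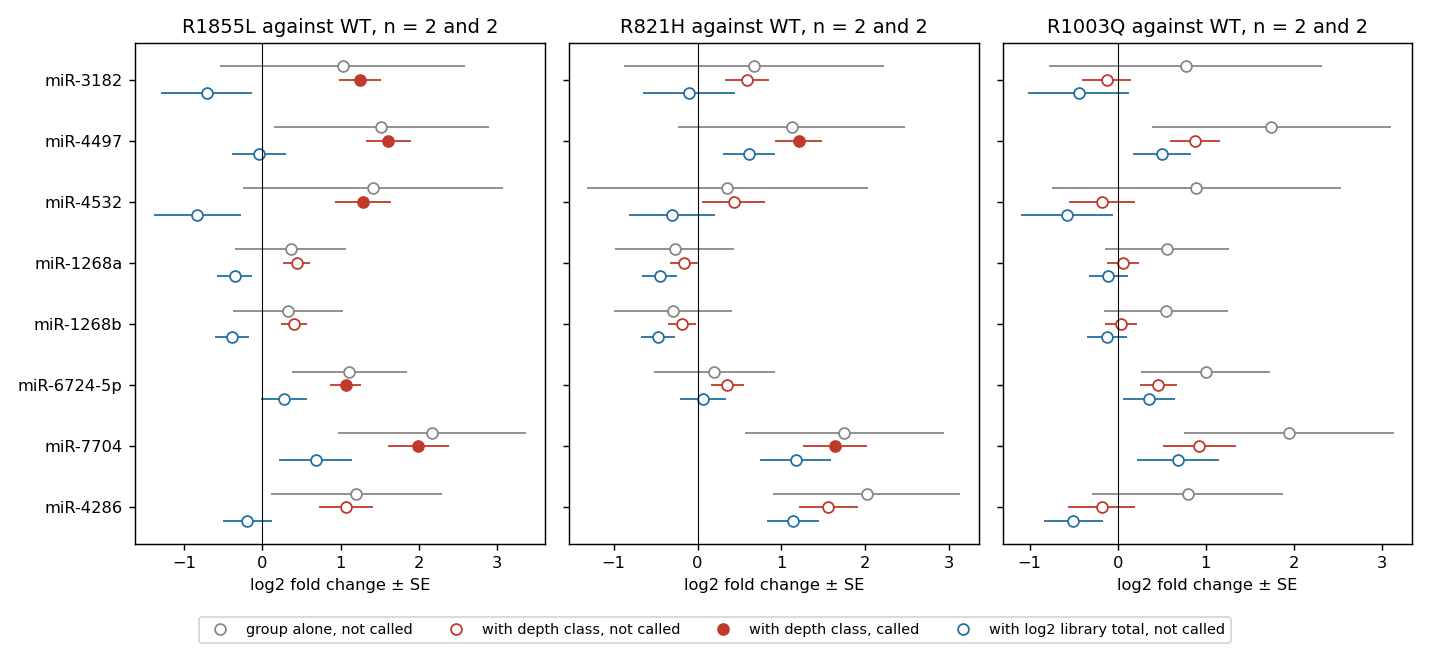
Log2 fold change (point) with SE (line) of each of the 8 names in R1855L, R821H and R1003Q against WT, from edgeR fits with group alone (grey), with a depth class term (red) and with log2 library total as a covariate (blue); filled points passed an adjusted p under 0.05. Filled points occur for 5 names in R1855L and 2 in R821H, all with the depth class term, and the blue points lie to the left of the grey ones.

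The 8 names varied together. Over the 8 libraries, the log2 level of a name and that of the sum of the other 7 had a Pearson r from 0.75 for miR-4286 to 0.99 for miR-1268a, as a description of libraries that differ in depth. The sum is mostly the miR-1268 pair, whose members may count the same reads. With the partner also left out of the sum, r was 0.91 for miR-1268a and 0.90 for miR-1268b. Among tested names outside the group, those most like the summed level were miR-671-5p (r = 0.98), miR-330-5p (0.96), miR-8072 (0.95), miR-1248 (0.95) and miR-940 (0.95), over 8 libraries. miR-671-5p had 4052 and 2545 reads in R1855L, 5498 and 3199 in R821H, 4745 and 2599 in R1003Q, and 4603 and 6315 in WT. Unlike the reads of the 5 names noted above, its reads were higher in the deep library of each of these groups.

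A further 41 miRNA names known or proposed to share sequence with rRNA, transfer RNA, mitochondrial RNA or repeats were examined beside the 8. Of these, 33 were listed and 18 were tested. On the library totals all 18 had a mean ratio above 1 for shallow over deep, and on TMM-scaled totals 17 did. The library totals gave a median log2 ratio of 1.09 (range 0.29 to 3.03), beside 2.74 for the 8 names and 0.36 for all tested names. The 2 most abundant were miR-1260b, at 10767 CPM in WT, and miR-4454, at 1138 CPM in WT. miR-1260b had 21418 and 16714 reads in R1855L, 28844 and 7944 in R821H, 16256 and 9443 in R1003Q, and 20097 and 24221 in WT. Its reads were higher in the deep library of each group with both classes. Of the 18, miR-4466 and miR-5100 (11.1%) had fewer reads in the deep library in all 3 groups, as did 1.44% of all tested names.

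None of the 18 passed edgeR's test against WT with group alone, and their median log2 fold change was 0.84 in R1855L, 0.34 in R821H and 0.65 in R1003Q. With the depth class term, 11 of 18 were called higher and 0 lower in R1855L, where 11.7% of all tested names were called higher, and none was called in R821H or R1003Q. The 11 were miR-1260a (log2 fold change 1.19), miR-663a (1.25), miR-663b (1.19), miR-4485-3p (1.04), miR-4485-5p (0.84), miR-3648 (0.99), miR-3687 (0.93), miR-6087 (0.96), miR-7641 (0.71), miR-4484 (0.68) and miR-4454 (0.62). With log2 library total as a covariate 2 of the 18 were called higher in R1855L, miR-663b and miR-4485-5p, where 11.4% of all tested names were, and none in R821H or R1003Q.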

How the data were processed

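AQ-seq libraries were made from TRIzol-extracted total RNA and run on a NovaSeq, per the labels' protocols. Tools listed in the submitters' processing notes are bedtools, BWA and cutadapt, and the builds are mm10 and hg38. How these were used, and with which miRNA annotation, is not given in the sources used here. The authors deposited estimated counts per mature miRNA name and library, not normalised; a name not listed in a library was taken as 0. Counts were rounded to whole numbers and fitted with edgeR 4.0.16 in R 4.3.3 (TMM, filterByExpr, 1 robust quasi-likelihood model over 8 libraries), with Benjamini-Hochberg adjustment over all 625 tested names. Tested names held at least 99.8% of the reads of each library. The test with group alone was tried on counts simulated with the spread fitted as a trend over all names. It recovered 22.1% (R1855L), 19.8% (R821H) and 26.8% (R1003Q) of 2-fold changes. Of 4-fold changes it recovered 76.3%, 84.7% and 84.5% in the same order. The simulated counts held no shift in composition between deep and shallow libraries, so these rates need not hold for the 8 names. The lack of calls among the 8 with group alone therefore cannot show that changes of this size were absent. SE is the absolute log2 fold change over the square root of F. Plots used matplotlib 3.10.9 (Python 3.11.15).

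The 8 names, the 41 related names, the marker lists, the tests and the rule for named miRNAs (all 8 names, related names that were called or the 2 most abundant, the 5 names most alike, the 3 most abundant in WT) were chosen with earlier results of these data known. The related list is a hand-made selection from general knowledge of such names. Alternatives were DESeq2 1.42.0, median-ratio factors, library totals, no filter, a mean of at least 10 CPM, only the 4 libraries compared, the replicate block, a depth class term and each library left out. The log2 library total, TMM-scaled totals for the shallow over deep ratios, the crossed block and the depth class term with a library left out were added after seeing the data. Replicates of a group were not duplicates (chi-square over degrees of freedom from 10.4 to 197).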

Additional observations from a re-analysis of the deposited data

How the results depend on the processing

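The number of called names was 0 of 8 with group alone in each mutant under every alternative except the depth class term, which gave 5 in R1855L and 2 in R821H; R1855L replicate 2 and both libraries of R821H and of WT each decide the sign of some name. With log2 library total, miR-3182, miR-4497, miR-4532, miR-1268a, miR-1268b and miR-4286 turned to -0.71, -0.043, -0.83, -0.35, -0.38 and -0.19 in R1855L, miR-3182 and miR-4532 to -0.10 and -0.30 in R821H, and miR-3182, miR-4532, miR-1268a, miR-1268b and miR-4286 to -0.44, -0.57, -0.11, -0.12 and -0.51 in R1003Q. The depth class term turned miR-3182, miR-4532 and miR-4286 to -0.13, -0.18 and -0.18 in R1003Q. The cause was not tested. The median shallow over deep ratio moved to 2.43 (log2) on TMM-scaled totals, by a shift common to all names. No label states that libraries with the same replicate number belong together. Deviations of replicate 1 from the group mean correlated at -0.70 (R1855L and WT), -0.68 (R821H and WT) and 0.09 (R1003Q and WT). Between mutants the values were 0.57 (R821H and R1855L), 0.02 (R1003Q and R1855L) and -0.12 (R1003Q and R821H). Replicate 1 is deep in R1855L and R821H and shallow in WT, and both R1003Q libraries are shallow. The correlations therefore cannot show whether the numbers pair libraries. The replicate block left 19 R1855L calls against 36, none of the 8 names, gave medians of 0.56, -0.09 and 0.53 in R1855L, R821H and R1003Q, and turned miR-3182 and miR-4532 in R821H to -0.28 and -0.39. Crossing the WT numbers, after seeing the data, sorts the libraries of R1855L, R821H and WT by depth class. Unlike the depth class term, it places R1003Q replicate 1, which is shallow, with the deep libraries. Over all tested names the crossed block gave 57 calls in R1855L and 0 in R821H, where the depth class term gave 177 and 16. At an unadjusted edgeR p under 0.05 it had 3 and 2 of the 8 names, beside 26.2% and 5.76% of all tested names.

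With 1 library left out, calls stayed at 0 to 0 with group alone. The medians ranged from -0.60 to 2.89 in R1855L, -1.01 to 3.03 in R821H and -0.039 to 2.66 in R1003Q, and with the depth class term from 1.01 to 1.17, 0.41 to 0.75 and -0.041 to 0.36. The depth class term gave 4 to 8 (6 without WT replicate 2 or either R1003Q library), 0 to 3 and 0 calls. The summed level ranged from -0.51 to 1.62, -1.003 to 1.08 and -0.023 to 1.77. In R1855L, R821H and R1003Q, miR-3182 ranged from -1.36 to 3.92, -2.53 to 3.58 and -0.26 to 3.70, miR-4532 from -2.00 to 4.08, -2.16 to 3.04 and -0.22 to 3.59, miR-1268a from -0.60 to 1.51, -1.08 to 0.87 and -0.15 to 1.73, and miR-1268b from -0.62 to 1.46, -1.10 to 0.85 and -0.16 to 1.70. In R1855L and R821H, miR-4497 ranged from -0.61 to 3.90 and -0.95 to 3.51, miR-6724-5p from -0.16 to 2.17 and -0.51 to 1.27, and miR-4286 from -0.32 to 2.35 and -0.34 to 3.18. A group left with 1 library was assumed to vary like the others. With the depth class term, the share of all tested names called higher also changed with the library left out. The counts of called names therefore cannot be compared between these fits. Counts of 8 to 48 reads limit miR-4532 and miR-7704.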
